A study of Mus musculus with 120 samples.

Results

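Voltage-gated channels for potassium, sodium and calcium, with the related potassium channels and the auxiliary subunits that travel with them, were followed through neural differentiation of mouse embryonic stem cells. The genes were taken by symbol (beginning with Kcn and a letter, Scn and a digit, or Cacna, Cacnb or Cacng), which gave 138 of the 23154 genes of the cell count table. Of these, 134 encode proteins and 4 are non-coding transcripts named after a channel gene (Kcnd3os, Kcnmb4os1, Kcnmb4os2 and Kcnq1ot1). The cells were of the E14 line (E14/TG2A). KO cells carried a CRISPR-Cas9 deletion of an enhancer called Enh9E and WT cells did not, and both were sequenced as undifferentiated stem cells (D0) and as neural progenitors after 8 days of differentiation (D8). There were 3 KO libraries and 2 WT libraries a day. The labels give neither the position of Enh9E nor its target gene, so the deletion was not checked in these counts, and the number of KO clones is not given. RNA of dissected mouse embryos of 3 stages between 6.5 and 7.5 days of gestation was set beside them, with 6 libraries of the extra-embryonic part (ExE) and 12 of embryonic regions.

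A voltage-gated channel has a pore-forming alpha subunit that opens when the membrane depolarises. Sodium channels start the action potential, potassium channels end it and set the resting potential, and calcium channels turn it into calcium entry at synapses and dendrites. Auxiliary subunits (beta, alpha2delta, gamma, KChIP and others) change how many channels reach the membrane and how they gate. Stem cells do not fire action potentials, and excitability is acquired as progenitors become neurons.

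Promoter sequence was at hand for 102 of the 138 genes (RefSeq, GRCm38.p6, 250 bases before to 50 bases after a start site). That site was not always the outer end of the gene. The 4 shown belong to genes whose change over the 8 days differed between KO and WT cells, described further on. They held between 7 and 38 CG dinucleotides. Those of Cacnb3 and Scn8a lie inside the genes, which begin at chr15:98628436 and chr15:100869863, so they do not describe the outer gene starts. The site of Cacna1b lies just inside its gene, which begins at chr2:24763200. That of Kcnk5 is the gene start (chr14:20181782). Capitals mark CG dinucleotides.
Cacna1b (chr2:24763103-24763402, minus strand): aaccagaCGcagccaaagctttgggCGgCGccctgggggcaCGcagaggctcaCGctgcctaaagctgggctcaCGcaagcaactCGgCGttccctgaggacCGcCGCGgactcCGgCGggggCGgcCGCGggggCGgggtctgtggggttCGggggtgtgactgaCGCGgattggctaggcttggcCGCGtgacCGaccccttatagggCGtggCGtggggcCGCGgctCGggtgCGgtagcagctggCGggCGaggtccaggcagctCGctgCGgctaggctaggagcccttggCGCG
Scn8a (chr15:100870395-100870694, plus strand): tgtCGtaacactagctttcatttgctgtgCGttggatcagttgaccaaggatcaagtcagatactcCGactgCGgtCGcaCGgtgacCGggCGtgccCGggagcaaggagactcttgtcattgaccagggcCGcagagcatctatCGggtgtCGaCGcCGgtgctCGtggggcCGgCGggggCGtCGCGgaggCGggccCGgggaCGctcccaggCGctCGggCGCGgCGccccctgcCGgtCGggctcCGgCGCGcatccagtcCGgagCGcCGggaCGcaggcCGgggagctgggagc
Kcnk5 (chr14:20181733-20182032, minus strand): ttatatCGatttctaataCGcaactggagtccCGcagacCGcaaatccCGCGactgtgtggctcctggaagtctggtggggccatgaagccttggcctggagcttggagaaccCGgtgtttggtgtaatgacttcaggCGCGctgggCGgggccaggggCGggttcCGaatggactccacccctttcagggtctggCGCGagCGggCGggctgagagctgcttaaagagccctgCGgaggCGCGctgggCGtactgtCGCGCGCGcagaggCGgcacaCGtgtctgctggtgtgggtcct
Cacnb3 (chr15:98632078-98632377, plus strand): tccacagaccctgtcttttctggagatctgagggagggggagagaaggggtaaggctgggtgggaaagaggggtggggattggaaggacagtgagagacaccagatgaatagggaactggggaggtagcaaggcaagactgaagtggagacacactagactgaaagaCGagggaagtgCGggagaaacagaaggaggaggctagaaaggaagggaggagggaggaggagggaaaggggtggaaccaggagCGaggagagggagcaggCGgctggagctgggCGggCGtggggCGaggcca
The Cacna1b promoter held 35 CG dinucleotides, that of Scn8a 38, that of Kcnk5 26 and that of Cacnb3 7. The median was 11.2 over the channel genes with a promoter and 7 over all promoters, and 17.5 over the channel genes tested in the cells and 20 over all genes tested there. The letters CAGCTG, an E-box core whose reverse complement is itself, stood in 29.4% of the channel promoters, against 18.3% of all 27025 promoters of that length. They stood in 15 of the 39 promoters of channel genes that were higher at D8 in WT cells and in 0 of the 9 promoters of those that were lower. They also stood in 4 of 18 promoters of those that did not pass and in 11 of 36 of channel genes too low to test. In KO cells the counts were 12 of 32 for those higher and 1 of 10 for those lower. The letters stood in 18.4% of promoters of all genes tested in the cells, a share not worked out by direction of change. Among the 4 shown, only that of Cacna1b held them, as 1 match.

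The cell libraries held 5.96 to 13.2 M counts each and the embryo libraries 5.15 to 17.1 M. Of the 138 genes, 89 passed the filter on low counts in the cells, 49 did not and were not tested (1 had no count in any library, and the highest count of any of them in a library was 28). A gene that passed through 1 group alone was bound to differ, so counts over the 89 are not counts over the family. KO D8 replicates differed from each other more than replicates of the other cell groups, with a chi-square per degree of freedom of 25.2 to 63.9, against 3.78 to 12.5. The labelled stages were checked by markers. Summed neural progenitor markers were 621 to 928 CPM (a gene's counts per 1 M of the TMM-scaled library total) in KO D8 and 1311 to 1417 CPM in WT D8 libraries, against 34.5 to 47.7 CPM in D0 libraries. Naive pluripotency markers were 212 to 310 CPM in KO D8 and 74.9 to 119 CPM in WT D8 libraries, against 6033 to 6801 CPM in D0 libraries. The summed level of 12 neuronal marker genes was 299, 570 and 595 CPM in the KO D8 libraries and 1845 and 1175 CPM in the WT D8 libraries. At D0 it was 225 to 297 CPM in KO and 308 and 345 CPM in WT libraries. KO D8 replicate 1 thus lay within the range of the D0 libraries. Nothing in the labels says that libraries came from separate cultures, so the p-values measure the spread between these libraries, which may be technical. In these bulk samples, fewer cells of a type and less RNA per cell cannot be told apart.

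More channel genes rose than fell over the 8 days in both genotypes. Of the 89 tested, 39 were higher at D8 in KO cells (33.4% of all 14629 tested genes were higher) and 18 were lower (31.1% of all tested genes were lower). The median log2 fold change was 0.77, against 0.05 over all tested genes. In WT cells 49 rose (27.9% of all tested genes) and 14 fell (29.3% of all tested genes), with a median of 1.58 against -0.05. With no filter on low counts, 137 could be tested, of which 39 rose and 19 fell in KO cells (22.2% and 22.1% of all genes tested that way), and 54 rose and 15 fell in WT cells (19.6% and 19.3%). KO and WT cells share no library in these contrasts: 34 genes rose in both, 13 fell in both, and 17 passed in neither. For these counts, the share over all tested genes was not worked out. Scn3a fell in KO cells and rose in WT cells.

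**Figure D1:**
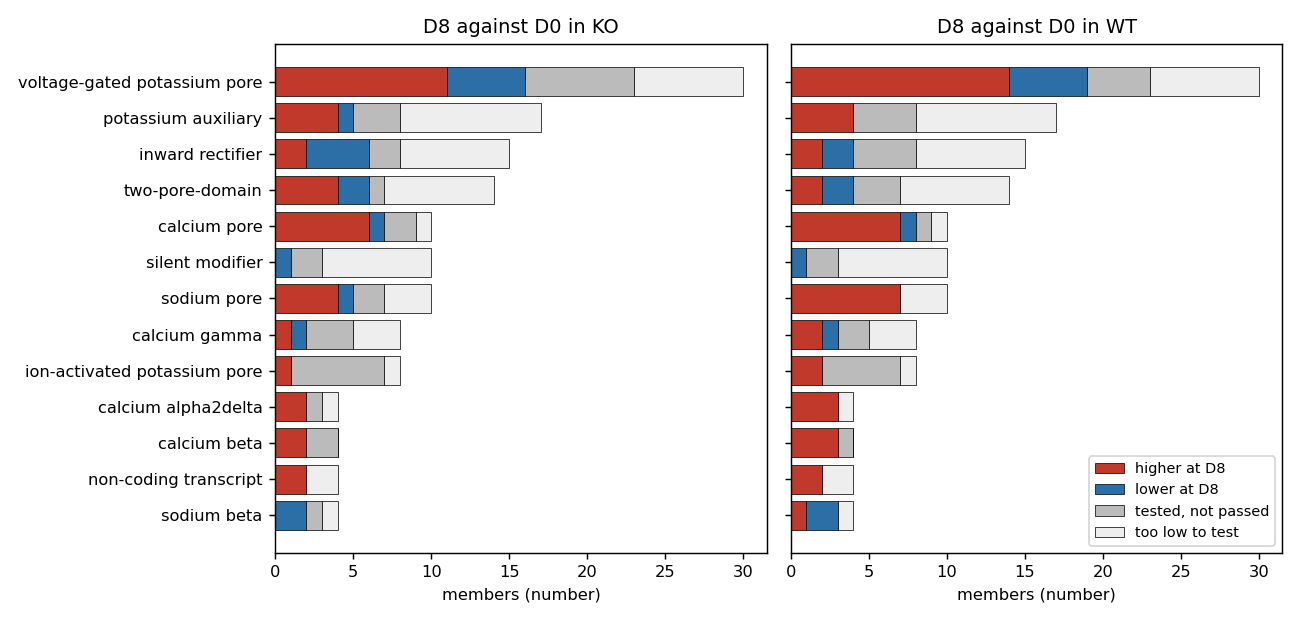
Number of members of each subunit class (horizontal axis) that were higher at D8, lower at D8, tested without passing, or too low to test, in KO cells (left) and WT cells (right). Of the 7 tested sodium pore genes, 4 were higher in KO cells, against all 7 in WT cells (4 without WT D0 replicate 2). Over all tested genes, 33.4% were higher in KO and 27.9% in WT cells.

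Among sodium channel pores, 4 of the 7 genes tested were higher at D8 in KO cells, 1 was lower and 2 did not pass, against all 7 higher in WT cells. Of all tested genes, 33.4% were higher and 31.1% lower in KO cells, and 27.9% higher and 29.3% lower in WT cells. Without WT D0 replicate 2 the WT count was 4, the number in KO cells, with Scn11a, Scn2a1 and Scn3a lost. The KO count was 1 without KO D0 replicate 1 or 3 and 2 without KO D8 replicate 2. With a filter of 20 counts in 2 libraries only 4 sodium pores were tested, of which 2 rose in KO and all 4 in WT cells. Scn3a, the sodium channel of embryonic neurons, had 2.85, 3.91 and 5.25 CPM in KO D8 libraries and 31.8 and 19.7 CPM in WT D8 libraries. At D0 it had 17.1, 12.3 and 14.5 CPM in KO and 14.7 and 9.69 CPM in WT libraries. The 3 KO D8 libraries lay below all others and the 2 WT D8 libraries above all others. Its log2 fold change over the 8 days was -1.86 ± 0.30 (SE, edgeR adjusted p = 0.000241) in KO cells and 1.07 ± 0.34 (adjusted p = 0.0187) in WT cells. Without WT D0 replicate 2, or without WT D8 replicate 1, the rise of Scn3a in WT cells did not pass (adjusted p up to 0.12, log2 fold change 0.79 at the lowest). Scn8a, which carries sodium current at nodes of Ranvier, had 23, 15.9 and 15.1 CPM in KO D8 and 57.2 and 26.7 CPM in WT D8 libraries, against 11.1, 17.3 and 18.2 CPM in KO D0 and 7.78 and 10.3 CPM in WT D0 libraries. KO libraries of the 2 days overlapped, and WT libraries did not.

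The sodium beta subunits anchor and modulate the pores. Scn2b had 2.22, 1.75 and 3.13 CPM in KO D8 libraries against 10.7, 16.3 and 14.1 CPM in KO D0 libraries, and 2.07 and 2.89 CPM in WT D8 against 7.53 and 5.64 CPM in WT D0 libraries. The days did not overlap in either genotype, and the log2 fold change was -2.53 ± 0.31 in KO and -1.39 ± 0.39 in WT cells (SE, edgeR adjusted p = 3.56e-05 and 0.00997). In WT cells it did not pass without WT D0 replicate 1 or WT D8 replicate 1 (adjusted p up to 0.0884). The promoter of Scn2b held 2 CG dinucleotides.

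Calcium channel pores rose in most cases: 6 of 9 tested in KO cells and 7 of 9 in WT cells, with 1 fall in each. Rises made up 33.4% of all tested genes in KO and 27.9% in WT cells, and falls 31.1% and 29.3%. In WT cells the call of Cacna1i was lost with DESeq2 and with a replicate block. Its log2 fold change was 2.18, and 1.81 to 2.88 with a WT library left out. Cacna1c in KO cells was called in 2 of 6 fits that left out a KO library (edgeR adjusted p up to 0.154). Cacna1g and Cacna1h encode T-type channels, which open near rest. Cacna1g had 34.6, 31.8 and 35.5 CPM in KO D8 against 2.38, 2.86 and 4.9 CPM in KO D0 libraries, and 48.6 and 39.1 CPM in WT D8 against 2.22 and 1.59 CPM in WT D0 libraries. Its log2 fold change was 3.27 ± 0.25 in KO and 4.50 ± 0.34 in WT cells (SE, edgeR adjusted p = 1.17e-06 and 1.72e-06). Cacna1h had 11.3, 8.02 and 9.18 CPM in KO D8 and 50 and 38.7 CPM in WT D8 libraries, against 0.892 to 3.08 CPM in KO D0 and 1.36 and 1.74 CPM in WT D0 libraries. It rose in both genotypes, and the WT D8 libraries were the highest. Cacna1a, the P/Q-type pore of synaptic terminals, was the 1 pore that fell, to 29.7, 20.2 and 25.7 CPM in KO D8 libraries against 43.6, 44.7 and 43.5 CPM in KO D0 libraries. In WT cells it had 35.8 and 29.2 CPM at D8 against 59.1 and 48.6 CPM at D0, and that call was lost without WT D0 replicate 1 and without WT D8 replicate 2, and under scaling by total counts alone (adjusted p up to 0.124 with a library left out).

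Of the auxiliary calcium subunits, Cacng4, a gamma subunit that also escorts AMPA receptors, had 9.19, 8.64 and 7.47 CPM in KO D8 libraries and 20.1 and 24.4 CPM in WT D8 libraries. It had at most 0.474 CPM in any D0 library, and 3 counts in all in WT D0. The alpha2delta gene Cacna2d1, which brings pores to the membrane, had 11.7, 16.1 and 16.2 CPM in KO D8 and 28.4 and 46.5 CPM in WT D8 libraries, against 3.08 to 3.89 CPM in KO D0 and 4.2 and 4.05 CPM in WT D0 libraries. All D8 libraries lay above all D0 libraries for both genes. Cacnb1, a beta subunit, did not pass in either genotype, with log2 fold changes of -0.38 ± 0.17 in KO and 0.21 ± 0.21 in WT cells.

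Voltage-gated potassium pores held more risers than fallers. In KO cells 11 rose and 5 fell of 23 tested (33.4% and 31.1% of all tested genes). In WT cells 14 rose and 5 fell (27.9% and 29.3% of all tested genes). The 5 that fell were Kcna7, Kcnc4, Kcnd1, Kcnh3 and Kcnh6 in both. Kcnc4 was lost with DESeq2 in both genotypes, Kcnc4 and Kcnd1 were lost in WT cells without WT D8 replicate 1, and Kcnd1 was called there in 1 of 4 fits that left out a library (edgeR adjusted p up to 0.161). A filter of 20 counts in 2 libraries left 13 of these pores tested, with 5 rises in KO and 7 in WT cells. The number of rises in WT cells also changed when a WT library was left out. Kcnh2, the ERG channel, had 18.8, 37.4 and 35.8 CPM in KO D8 and 52.6 and 52.7 CPM in WT D8 libraries, against 12.6, 14.2 and 17.6 CPM in KO D0 and 10.7 and 11 CPM in WT D0 libraries. Its relative Kcnh3 went the opposite way, with 1.16, 0.206 and 0.303 CPM in KO D8 and 0.591 and 0.75 CPM in WT D8 libraries, against 14.6 to 24.3 CPM in KO D0 and 14.7 and 17.4 CPM in WT D0 libraries. The log2 fold change of Kcnh3 was -5.05 ± 0.46 in KO and -4.53 ± 0.56 in WT cells (SE, edgeR adjusted p = 3.68e-06 and 4.82e-05). Kcna7, a Shaker-type pore, had no count in any D8 library. With a floor of 3 counts over the group, it was at least 31.1-fold lower at D8 in KO cells and at least 9.18-fold lower in WT cells. Leaving out a library gave bounds of 20.5 to 34.4 in KO and, without WT D8 replicate 1 or 2, of 5.32 and 3.86 in WT cells.

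Some members had no count in WT D0 libraries, so that only a lower bound can be given for their rise in WT cells, with the same floor. Kcnj11, the pore of the ATP-sensitive potassium channel, was at least 17.8-fold higher at D8. The non-coding transcript Kcnmb4os2 was at least 16.7-fold higher, and it overlaps Kcnmb4, with which it may share reads. Kcna3 was at least 8.09-fold and Kcnmb2 at least 5.37-fold higher. Without WT D0 replicate 1, the bounds of these 4 were 8.19, 7.68, 3.73 and 2.47, and without WT D0 replicate 2 they were 9.6, 9, 4.37 and 2.9. Kcna2 had 12 and 3 counts in WT D8 libraries and none in WT D0 libraries, and Kcnj6 had none in WT D8 and 10 and 4 counts in WT D0 libraries. Both passed in WT cells, but in only 1 of 4 fits that left out a library (edgeR adjusted p up to 0.118 and 0.0835), so no fold is given.

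Of the inward rectifiers, which hold the resting potential, 2 rose and 4 fell of 8 tested in KO cells (33.4% and 31.1% of all tested genes), and in WT cells 2 rose and 2 fell (27.9% and 29.3%). A filter of 20 counts in 2 libraries left 6 tested, with 2 rises and 2 falls in KO cells. Kcnj12 had 5.49, 14 and 5.15 CPM in KO D8 against 37.5, 34.5 and 40.6 CPM in KO D0 libraries, and 4.14 and 5.25 CPM in WT D8 against 32.2 and 23.4 CPM in WT D0 libraries. Among the K2P leak channels, 4 rose and 2 fell of 7 tested in KO cells (33.4% and 31.1% of all tested genes). In WT cells 2 rose and 2 fell (27.9% and 29.3%). The long transcript Kcnq1ot1, which silences neighbouring imprinted genes in cis, had 73.1, 96.4 and 101 CPM in KO D8 and 74.1 and 71.6 CPM in WT D8 libraries, against 16.5 to 34.3 CPM in KO D0 and 41.4 and 34 CPM in WT D0 libraries. It lies within Kcnq1, and reads of the pair may have been shared; its rise in WT cells did not pass without WT D0 replicate 2 (adjusted p = 0.0889, edgeR).

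**Figure D2:**
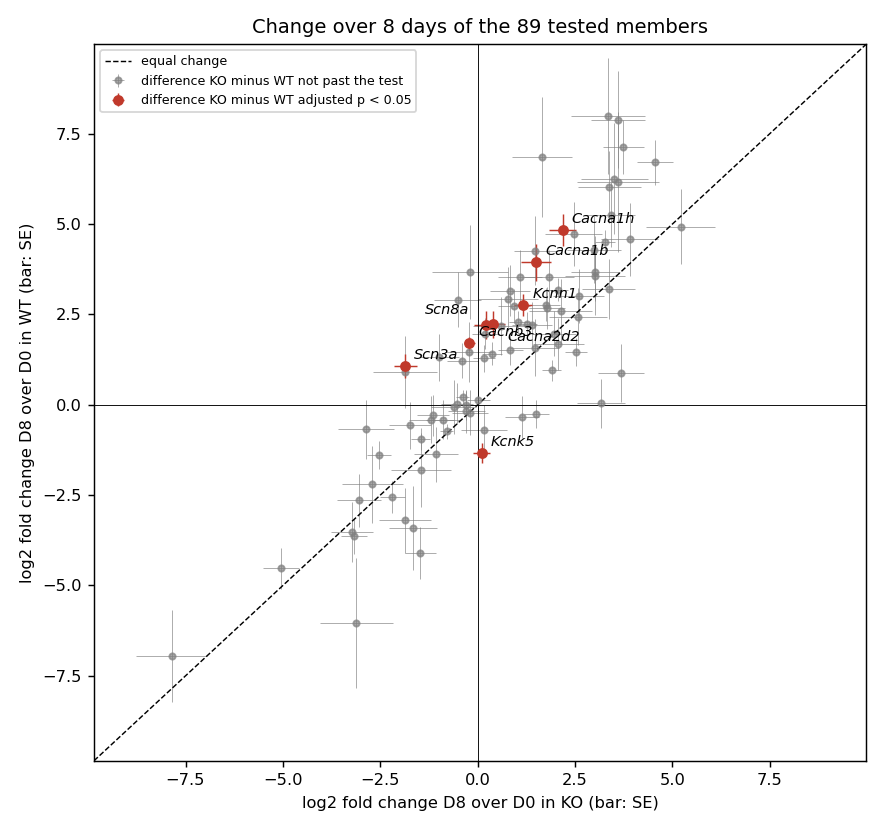
Log2 fold change of D8 over D0 in KO cells (horizontal) against WT cells (vertical) for the 89 tested members, with standard errors as bars and the line of equal change dashed. Red points are the 8 members whose change differed between the genotypes, 7 above the line and Kcnk5 below it. For members with no count in 1 group the plotted value depends on the fit's prior count.

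The change over the 8 days differed between KO and WT cells for 8 channel genes, 7 of them with the lower value in KO cells. The difference of the changes (KO minus WT) was below 0 in 66 of 89 tested genes, with a median of -0.86 against 0.01 over all tested genes. It passed the test in 8: 1 above 0 (3% of all tested genes) and 7 below 0 (2.76% of all tested genes), and 33 had an unadjusted p under 0.05. For the 66 and the 33, the share over all tested genes was not worked out. The median KO minus WT value of the 89 was -0.59 at D8 and 0.43 at D0 (0.02 and 0.03 over all tested genes). The 7 were Scn3a, Cacna1h, Cacna1b, Scn8a, Cacnb3, Cacna2d2 and Kcnn1, and the 1 was Kcnk5. Beside this count, KO D8 libraries had lower neuronal markers, as given above, and higher endoderm markers (summed level 365 to 816 CPM in KO and 85.6 to 94.8 CPM in WT). At D8, 10 of the 12 neuronal markers were lower in KO than in WT cells, 5 of the 6 endoderm markers tested were higher, and no marker of either list was at 0. The part of either in the channel values was not tested.

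Cacnb3, a beta subunit of high-voltage calcium channels, differed with the smallest adjusted p of the 8. It had 26.9, 24.3 and 25.9 CPM in KO D8 and 45.5 and 58.8 CPM in WT D8 libraries, against 29.4, 28.9 and 31 CPM in KO D0 and 16.5 and 15.6 CPM in WT D0 libraries. KO libraries lay below WT libraries at D8 and above them at D0. The difference of the changes was -1.91 ± 0.23 on the log2 scale (SE, edgeR adjusted p = 0.00723), and that of Scn3a was -2.93 ± 0.45 (adjusted p = 0.011). Those of Cacna1h, Scn8a and Kcnn1 were -2.65 ± 0.56, -2.01 ± 0.49 and -1.58 ± 0.38 (adjusted p = 0.0274, 0.0399 and 0.0383).

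Cacna1b, the N-type pore of presynaptic terminals, had 7.4, 4.83 and 8.68 CPM in KO D8 and 23.9 and 14.9 CPM in WT D8 libraries, against 1.49, 2.63 and 3.08 CPM in KO D0 and 1.73 and 0.723 CPM in WT D0 libraries. Cacna2d2, an alpha2delta subunit, had 13.3, 6.48 and 10.3 CPM in KO D8 and 18 and 15.9 CPM in WT D8 libraries, against 6.39, 8.12 and 8.22 CPM in KO D0 and 4.45 and 2.75 CPM in WT D0 libraries. The differences were -2.44 ± 0.64 and -1.82 ± 0.48 (edgeR adjusted p = 0.0481 and 0.048). Kcnn1, a small-conductance channel opened by calcium, had 11.3, 13.3 and 15.3 CPM in KO D8 and 24.5 and 18.3 CPM in WT D8 libraries, against 6.54, 5.14 and 6.09 CPM in KO D0 and 3.58 and 2.75 CPM in WT D0 libraries.

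Kcnk5, a leak channel sensitive to pH, had 35.6, 44.8 and 50.1 CPM in KO D8 and 11.5 and 19.9 CPM in WT D8 libraries, against 44, 34.3 and 43.7 CPM in KO D0 and 36.9 and 43 CPM in WT D0 libraries. WT D8 libraries were the only low ones. The difference was 1.43 ± 0.34 (edgeR adjusted p = 0.0357). Leaving out 1 library changed the count of 8 calls on the difference of the changes to between 0 and 18, and none of the 8 was called in all 10 such fits. The count was 4 without KO D0 replicate 1, 10 without KO D8 replicate 2, 6 without WT D8 replicate 2, 2 without KO D0 replicate 2, KO D0 replicate 3, KO D8 replicate 3, WT D0 replicate 1 or WT D8 replicate 1, 18 without KO D8 replicate 1 (the 8 and 10 more), and 0 without WT D0 replicate 2. Scn3a and Cacnb3 were called in 9 of the 10 such fits, and without WT D0 replicate 2 their adjusted p was 0.0716 and 0.0531.

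**Figure D3:**
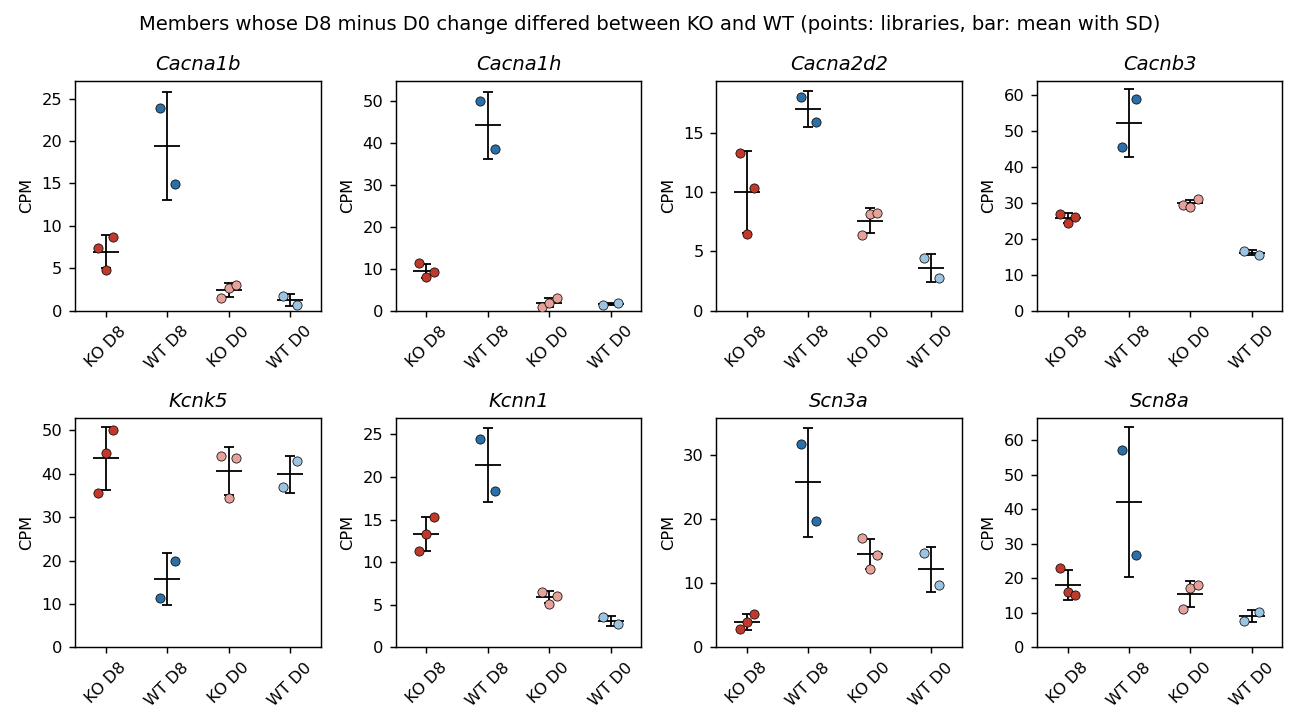
CPM (vertical axes, from 0) of the 8 members whose D8 minus D0 change differed between KO and WT cells, with 1 point per library and bars for the mean with SD, in KO D8, WT D8, KO D0 and WT D0. Scn3a was below 6 CPM in the KO D8 libraries and above all other groups in WT D8, and Kcnk5 was low in WT D8 alone.

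At D8 itself, KO cells were lower than WT cells for more channel genes than they were higher. Of 89 tested, 6 were higher (12.5% of all tested genes) and 16 lower (8.24% of all tested genes), with a median of -0.59 against 0.02. By the spread of single libraries, 12 lay wholly higher (25.3% of all tested genes) and 34 wholly lower (22.2%). Across all genes 60.3% of the calls were higher in KO, and with DESeq2 size factors or total counts as the scale that share was 48.1% or 37.7%; total counts moved the median of all genes by -0.20, and the channel calls were then 5 higher and 20 lower.

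The fall was largest for Scn3a, at -2.67 ± 0.32 on the log2 scale (SE, edgeR adjusted p = 0.00111), followed by Kcnh4, a slow potassium channel of the ELK type, with 1.16, 1.85 and 1.11 CPM in KO D8 and 8.13 and 9.01 CPM in WT D8 libraries. KO and WT libraries did not overlap for Kcnh4. Its log2 fold change was -2.63 ± 0.38 (edgeR adjusted p = 0.0021), and that of Cacna1h was -2.22 ± 0.32 (adjusted p = 0.00203). Kcnc1, a fast-spiking potassium pore, had 2.64 to 3.29 CPM in KO D8 and 14.8 and 8.04 CPM in WT D8 libraries. Scn3b passed with overlapping libraries, at 5.49, 1.75 and 4.04 CPM in KO D8 and 34.3 and 5.15 CPM in WT D8.

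The 6 that were higher in KO cells held 3 K2P leak channels. Kcnk6 had 2.85, 7.09 and 6.16 CPM in KO D8 and 0.148 and 0.429 CPM in WT D8 libraries, which was 5 counts in all in WT. Kcnk1 had 19.9, 26.2 and 29.5 CPM in KO D8 and 6.06 and 12.9 CPM in WT D8 libraries. Kcnq5, a pore of the M-current that dampens repeated firing, had 6.34, 3.8 and 7.37 CPM in KO D8 and 1.18 and 1.07 CPM in WT D8 libraries. For these 3 the genotypes did not overlap. Cacna1d, an L-type pore that opens at low voltage, had 14.8, 12.1 and 19.4 CPM in KO D8 and 4.73 and 5.47 CPM in WT D8 libraries (log2 fold change 1.59 ± 0.32, edgeR adjusted p = 0.00735).

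Cacna1d and Kcnk5 both lie on chromosome 14, where the median of all tested genes was 0.50 higher in KO than in WT cells at D8 and 0.47 higher at D0 on the log2 scale. Chromosomes 6 and 11 were also shifted, by 0.45 and 0.24 at D8, and their part in the channel values was not tested. The division by shifted chromosomes was chosen after the medians were seen, and its definition was changed once. Off chromosomes shifted by over 0.1 at both days (6, 11 and 14), 4 of 69 channel genes were higher and 13 lower, against 9.73% and 9.23% of all tested genes there. Off those shifted at either day, which adds 8 and X, the counts were 3 and 13 of 64, against 9.86% and 9.34%. Cacna1d and Cacna1h each overlap other genes and may share reads with them, as may Kcnh3 and Cacnb1. Leaving out WT D8 replicate 1 left 8 calls at D8 and took Cacna1d to an adjusted p of 0.0789, Kcnc1 to 0.101 and Kcnk1 to 0.202; leaving out KO D8 replicate 3 left 14, and leaving out KO D8 replicate 1 gave 31. Scn3b and Kcnq5 were each called in 2 of the 5 such fits, with adjusted p up to 0.56 and 0.13. Scn3a, Cacna1h, Cacnb3, Kcnh4 and Kcnk6 were called in every fit that left out 1 library. A fit of the D8 libraries alone called 13.

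**Figure D4:**
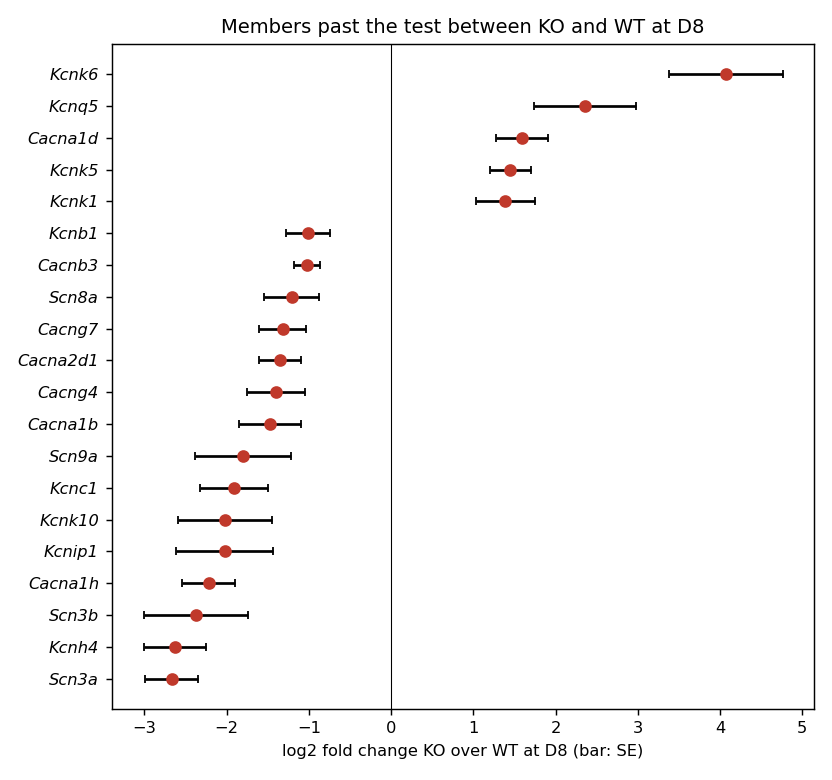
Log2 fold change of KO over WT at D8 with its SE for the members past the test that are reported here, ordered by size. Positive values run up to 4.07 (Kcnk6) and negative ones down to -2.67 (Scn3a).

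At D0 no channel gene passed between KO and WT cells with edgeR (0.273% of all tested genes passed). The median log2 fold change of the channel genes was 0.43, against 0.03 over all tested genes. An unadjusted p under 0.05 was found for 16, a count whose share over all tested genes was not worked out. DESeq2 called 3 and a fit of the D0 libraries alone called 8, all higher in KO. These were 5.08% of members against 3.09% of all genes with DESeq2, and 15.7% of members against 15.5% of all genes in the fit of the D0 libraries alone. The nearest was Cacnb3 at 0.89 ± 0.17 on the log2 scale (SE, edgeR adjusted p = 0.0568), which DESeq2 put at 0.87 (adjusted p = 0.00275). Kcnip3, a calcium-binding partner of A-type potassium channels, had 8.32, 7.09 and 9.17 CPM in KO D0 and 1.85 and 3.62 CPM in WT D0 libraries, and DESeq2 gave an adjusted p of 0.00567. At D0 25 genes lay wholly higher in KO (23.3% of all tested genes) and 6 wholly lower (21%).

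Other genes of electrical excitability, a list of 49 (pacemaker channels, sodium pump, scaffolds of the axon initial segment, modifiers), of which 48 were in the table and 44 were tested, were set beside the channels. In KO cells 18 rose and 14 fell over the 8 days (33.4% and 31.1% of all tested genes), with a median of 0.12 against 0.05 over all tested genes. In WT cells 25 rose and 11 fell (27.9% and 29.3%), with a median of 1.65 against -0.05. At D8 1 was higher and 12 were lower in KO than in WT cells (12.5% and 8.24% of all tested genes), with a median of -0.51 against 0.02. Hcn4, a pacemaker channel, was at -2.26 ± 0.48, Nfasc, which assembles the axon initial segment, at -1.81 ± 0.27, and Dpp6, a partner of A-type potassium channels, at -1.38 ± 0.29 (edgeR adjusted p = 0.00889, 0.00219 and 0.00849). Atp1b1, a sodium pump subunit, was the 1 that was higher, at 1.15 ± 0.28 (adjusted p = 0.016). The change over the 8 days differed for 8 of the 44, all with the smaller value in KO cells (2.76% of all tested genes).

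In the embryos Pou5f1, a marker of embryonic cells, was lower in ExE (log2 fold change -4.66 ± 0.51, edgeR adjusted p = 1.55e-05), and 66 of the 138 channel genes were tested. In ExE 5 were higher (20.3% of all tested genes) and 16 lower (19.5% of all tested genes) than in the embryonic regions, with a median log2 fold change of -0.62 against -0.01. Kcnk6 had a lowest, median and highest level of 6.12, 7.7 and 14.2 CPM in 6 ExE libraries and of 0, 0.52 and 1.62 CPM in 12 embryonic libraries. Kcnk1, a K2P channel of the same subfamily, went the other way, at 19.9, 24.4 and 30.9 CPM in ExE and 29.5, 51 and 103 CPM in embryonic libraries. The ExE libraries lay wholly above the embryonic ones for Kcnk6, and overlapped for Kcnk1. Their log2 fold changes were 3.88 ± 0.51 and -1.38 ± 0.18 (SE, edgeR adjusted p = 1.72e-05 and 2e-05).

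Kcnf1, a silent subunit that forms no channel by itself, had 0.9, 1.99 and 4.09 CPM in ExE and 0, 0.0253 and 0.787 CPM in embryonic libraries (log2 fold change 5.71 ± 0.74, edgeR adjusted p = 2.88e-05). Kcnj3, a G-protein-gated inward rectifier, had 0, 0.0899 and 0.716 CPM in ExE and 0.344, 4.68 and 10.4 CPM in embryonic libraries (-4.25 ± 0.60, adjusted p = 3.83e-05). Scn8a and Cacna1b were lower in ExE, with medians of 1.75 and 0.921 CPM against 5.01 and 6.33 CPM in embryonic libraries. The neuronal markers were lower in ExE as well, in 8 of 12 genes, and their part was not tested.

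**Figure D5:**
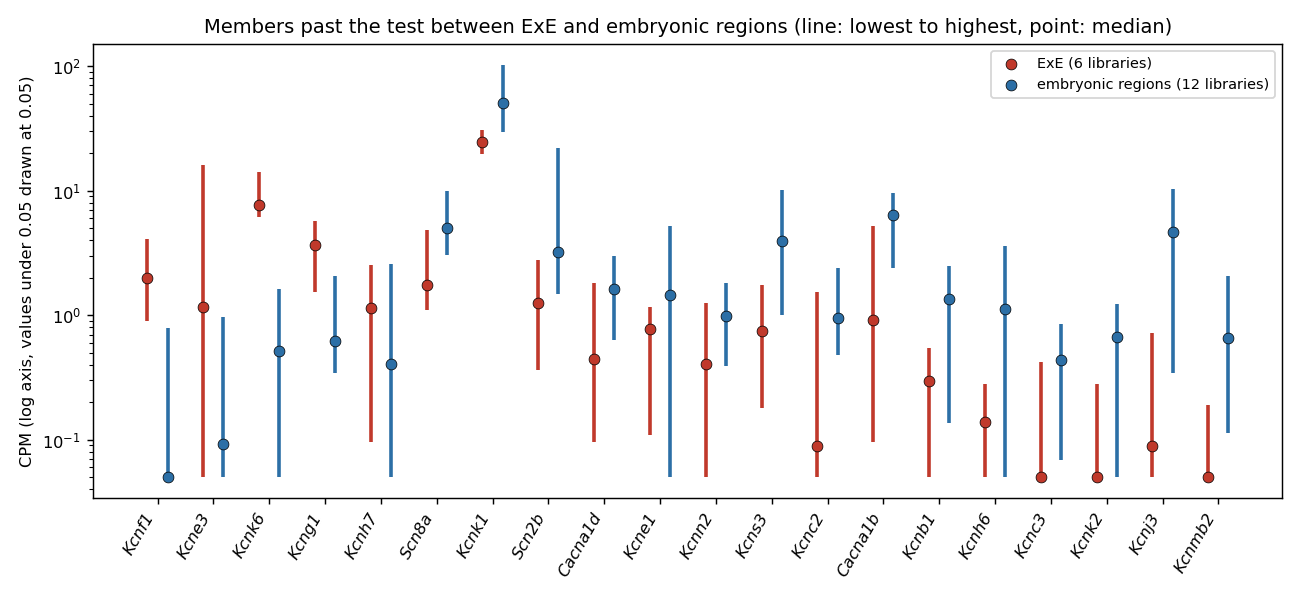
CPM on a log axis of the members past the test between ExE and embryonic regions that are reported here, ExE left of embryonic for each gene, with a point at the median and a line between the lowest and the highest library. Kcnf1 and Kcnk6 lay wholly above in ExE.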

How the data were processed

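Of the 120 samples, the 10 RNA libraries of cells and the 18 of embryos entered the comparisons, and the rest were not analysed here. The authors deposited raw counts per gene, in separate tables for cells and embryos. Builds and tools named in the submitters' processing notes are mm10, TopHat2 2.0.9, CASAVA 1.8 and BWA, with no role given. How reads were counted, and whether by strand, is not given in the sources used here. Overlapping genes may therefore share counts, and 20 of the 89 tested members overlap another listed gene. There were 6 embryo columns that matched no sample and were left out.

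Genes were tested by quasi-likelihood with edgeR 4.0.16 under R 4.3.3, keeping those that passed filterByExpr at a count of at least 10 and a total of at least 15 (TMM scaling, robust, all groups of a table fitted at once, no replicate block), with Benjamini-Hochberg adjustment over all genes tested (14629 in cells, 14403 in embryos) and a threshold of 0.05. Levels are CPM after TMM scaling. DESeq2 1.42.0 was an alternative, beside other scalings, other filters, a replicate block, fits of only the groups compared, and each library left out. The fit was tested on simulated data. No pair of replicates agreed within sampling noise (chi-square per degree of freedom 3.78 to 63.9 in cells and 40.4 to 135 in embryos). Floors cover counting error only.

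Members were chosen by symbol, and members, classes and lists were chosen with earlier results of these data known. Named genes were the members past the test in each contrast (up to 10 rises and 10 falls by p), the member of highest level in each class, up to 2 members per class that did not pass in WT cells, and members with no count in 1 group. Scn2b and Kcnip3, which this rule also names, and genes set beside them outside it were added after their values were seen. Counts cover all members, and values of some members are not reported here. Positions and promoters are RefSeq, GRCm38.p6, the assembly of mm10, and all 138 members had a position, 1 by a synonym.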

Additional observations from a re-analysis of the deposited data

Results flagged for a closer look

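The change over 8 days differed between KO and WT cells, by a test of the difference itself, for 8 channel genes. On the log2 scale (KO minus WT of D8 minus D0) it was -2.93 for Scn3a, -2.65 for Cacna1h, -2.44 for Cacna1b, -2.01 for Scn8a, -1.91 for Cacnb3, -1.82 for Cacna2d2 and -1.58 for Kcnn1, and 1.43 for Kcnk5. Over the fits that left out 1 library, the value of Scn3a lay between -3.32 and -2.64 and that of Cacnb3 between -2.17 and -1.75, and each was called in 9 of the 10. Cacna1h and Scn8a were called in 4 of the 10, Kcnk5 in 3, and Cacna1b, Cacna2d2 and Kcnn1 in 2, so that 0 of the 8 were called in all of them.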

How the results depend on the processing

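Of the 1156 values of named members under the alternatives, 1059 kept their direction and side of the threshold, 97 kept their direction and lost the call (85 of them with a library left out), and 0 changed direction. For KO against WT at D8, the compared groups alone gave 13 calls among members (22 in the reported fit) and 705 among all genes (3039). At D0, DESeq2 called 3 members and 409 genes, the compared groups alone 8 and 2033, no filter 70 genes, total counts 25 and the replicate block 6 (0 members and 40 genes in the reported fit). For the difference of the changes, DESeq2 called 14 members and 1732 genes and the replicate block 5 members (8 and 843). Leaving out 1 library gave 8 to 31 members and 777 to 5463 genes for KO against WT at D8, 0 members and 3 to 15 genes at D0, 0 to 18 members and 7 to 3591 genes for the difference of the changes, 48 to 55 members in KO and 51 to 60 in WT cells for D8 against D0, and 14 to 27 in the embryos. The causes of these changes, among them the smaller number of libraries, were not tested. With total counts the median of all genes moved by 0.30 for D8 against D0 in WT cells (62.5% of calls higher, 48.8% in the reported fit) and by -0.25 for the difference of the changes (27%, and 39.6% with DESeq2 size factors, 52.1% in the reported fit). Replicate numbers are shared by the groups, but did not pair the cells: 3 of 13 same-numbered pairs correlated above 0.1 (range -0.0811 to 0.21), and 6 of 10 libraries correlated best with their own number. In the embryos 40 of 72 pairs did, and all 18 libraries correlated best with their own number, a hint from the data and not the design. Each embryo group is a pair of libraries whose deviations from the group mean mirror each other, so these counts are not independent. The same holds for the WT cell groups. The block gave 53, 62, 20 and 0 calls among members for D8 against D0 in KO and WT cells and KO against WT at D8 and D0, and 22 in the embryos. Members of few counts limit what can be seen: 49 were too low to test.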
